A study of Solanum virginianum with 24 samples.

Results

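The change in gene expression of eggplant fruit between 5 and 10 days post anthesis (dpa) was taken from the 3 arrays of 10 dpa and the 3 arrays of 5 dpa, 6 of the 15 distinct arrays of the series. Each array was first expressed, per probe set, as its log2 value minus the mean of the 3 arrays of 0 dpa that the labels say were normalised with that stage, which adds 6 further columns to the comparison, 12 of 24 in all. Control probe sets were left out, so 10101 of 10209 probe sets entered the test. The fruit came from glasshouse plants of the cultivar PPL whose flowers were pollinated by hand at anthesis. All groups share this cultivar and handling, and the labels set them apart by age, which was 0, 5, 10, 20 or 50 dpa. Each later stage was also normalised in a set of its own with 0 dpa. The series title names the species as Solanum melongena, while the sample records give Solanum virginianum. The labels call the 3 arrays of a stage biological replicates without saying how many fruits or plants went into each.

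In Solanaceae, fruit set after pollination starts a phase of cell division in the ovary wall, and growth then passes over to cell enlargement, with loosening and rebuilding of the cell wall. The young fruit is green and its chloroplasts hold the photosystems, the light-harvesting chlorophyll proteins and the enzymes that make chlorophyll. Ethylene is made from its precursor ACC by ACC oxidase and is sensed by receptors that hold the response back in its absence. It is known best for its part in the ripening of tomato, the species the probes and gene symbols come from.

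A relative value of 1 means that a transcript gave 2-fold the signal it gave at 0 dpa. The centring of every probe set in the deposited table leaves no signal level, so levels of different genes could not be set against each other and the labelled tissue could not be checked against the levels of its markers. The 5 and 10 dpa values come from tables normalised separately, joined through the same 3 arrays of 0 dpa. In a bulk fruit sample, fewer cells of a type and less RNA per cell cannot be told apart. Gene symbols were available for 909 probe sets, or 803 genes, so that the named results cover 9% of the probe sets.

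Over all probe sets, 2269 (22.5%) changed from 5 to 10 dpa in limma with Benjamini-Hochberg adjustment at 0.05, of which 1039 (10.3%) rose and 1230 (12.2%) fell. At least 2-fold changes were fewer, at 180 probe sets (1.78%), and leaned to rises, with 120 (1.19%) higher and 60 (0.594%) lower. Quantile normalisation of the relative values, which gives every array the same spread, turned that split into 86 rises and 87 falls. When the error of the 0 dpa columns was added to the test, 1017 probe sets (10.1%) passed, 1007 of them among the 2269. That test took the same 3 arrays of 0 dpa as independent in the sets of 5 and 10 dpa. The study's own kind of test, an unpaired t-test, called 1045. The 3 arrays of 10 dpa lay wholly above or wholly below those of 5 dpa for 39.9% of the probe sets. The median difference was -0.01 and the median standard error 0.11 on the log2 scale.

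An array of the younger stage stood apart. For 50 probe sets 5 dpa replicate 2 lay more than 1 log2 unit below both other arrays of its stage, whereas on each of the other 5 arrays 0 or 1 probe set did so. The median relative value of these 50 was -1.13, -3.38 and -1.23 on the 5 dpa arrays and -0.54, -0.38 and -0.22 on the 10 dpa arrays. Of the 50, 35 were called higher at 10 dpa and 33 of them at least 2-fold, which is 33 of the 120 such rises. With that array left out, 39 of the 50 were called, 37 of them as rises. The median difference of the 50 was then 0.89, against 1.62 with the array. Only 1 of the 50 had a gene symbol, so the named genes below are little touched by them. Without that array 2074 probe sets changed, 934 up and 1140 down, with 110 rises and 61 falls of at least 2-fold.

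**Figure D1:**
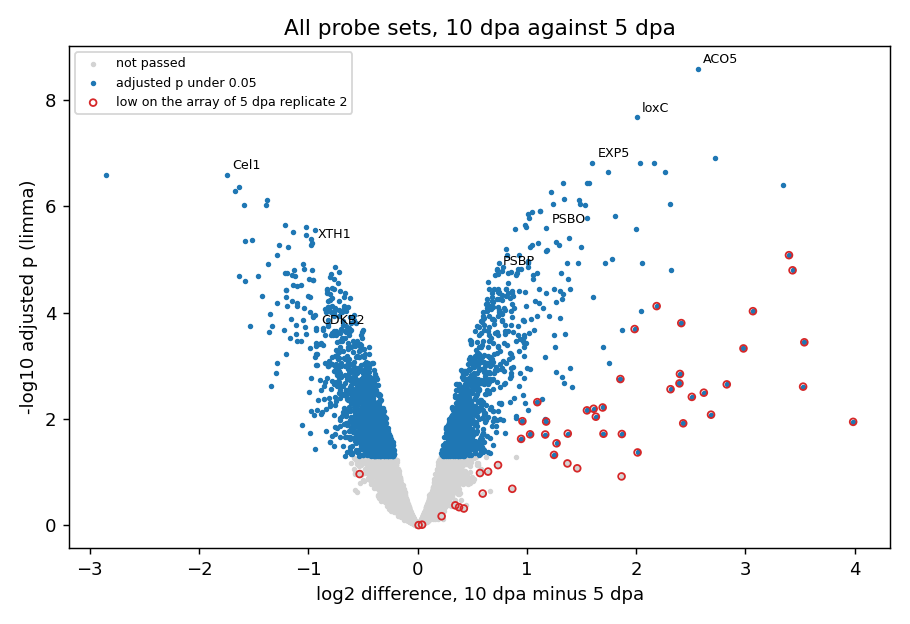
Each point is a probe set, with the log2 difference of 10 minus 5 dpa on the x axis and -log10 of the adjusted p from limma on the y axis. The 50 probe sets that were low on 5 dpa replicate 2 are circled in red, and they take up much of the far right, with 33 of the 120 rises of at least 2-fold.

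Among the genes with a symbol, 194 of 803 (24.2%) changed, 117 (14.6%) up and 77 (9.59%) down, and 11 rose and 8 fell at least 2-fold (2.37% together). Their arrays did not overlap between the stages in 45.8% of cases. For scale, 32.0% of all probe sets and 38.7% of these genes were called at 5 dpa against 0 dpa, and 35.3% and 43.3% at 10 dpa. Calls made up 100% of the photosynthesis list and 50% of the small abscisic acid, polyamine and lipid transfer lists. The share was 38.5% for cell cycle, 35.3% for carotenoid, 34.8% for sugar and starch and 33.3% for cytosolic isoprenoid. It was 29.2% for cell wall, 28.6% for organic acid and nitrogen, 27.3% for histones, 26.3% for redox and 25% for auxin. Below 24.2% lay ethylene synthesis and aquaporins (21.4%), ethylene perception and lipoxygenase (20%), kinases (18.2%) and defence (17.4%). Lower still were gibberellin and heat shock (12.5%), phenylpropanoid (11.1%), light signalling (7.14%) and fruit regulators, polyphenol oxidases and pollen (0%). Shares near 24.2% do not set a list apart. An ACC oxidase gene, a lipoxygenase gene, an expansin gene and photosystem II genes were among the largest rises. An endo-beta-1,4-glucanase gene, an NADPH oxidase gene and a chitinase gene were among the deepest falls. For the 12 largest rises and falls by gene, the arrays of the stages did not overlap, which the choice of these genes required.

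**Figure D2:**
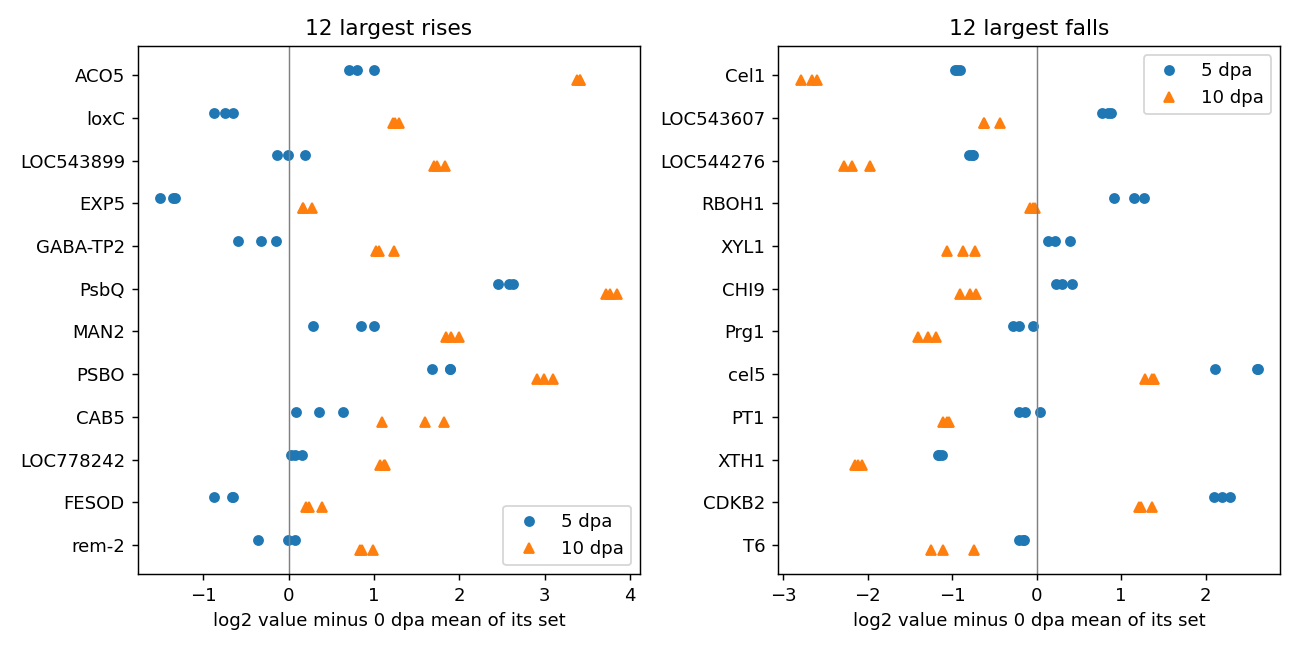
Log2 value minus the 0 dpa mean of its own set (x axis) for the 12 genes with the largest rises and the 12 with the largest falls (y axis), with a dot per array and the stages in different colours. The dots of a stage lie close together for ACO5, at 0.70 to 1.00 at 5 dpa and 3.37 to 3.41 at 10 dpa, and are more spread for CAB5, at 0.08 to 0.64 and 1.09 to 1.82.

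Most photosynthesis transcripts stood well above 0 dpa in the younger fruit already, and the list rose further by 10 dpa. CAB5, at 0.36 on the mean at 5 dpa, was not called there against 0 dpa (adjusted p = 0.198 in limma). All 8 measured genes passed as rises, with a median difference of 0.71 against 0.04 over the 803 genes, and 8 passed with the 0 dpa error included. Under quantile normalisation the list gave 5 rises and 1 fall with a median of 0.41, as PSBP turned to -0.30, CAB4 to -0.079 and CAB6A to -0.11, and the differences of PsbQ, PSBO and PETE shrank to 0.36, 0.53 and 0.46. The median relative value of the list was 1.93, 2.07 and 2.07 on the 5 dpa arrays and 2.91, 2.88 and 3.02 on those of 10 dpa, without overlap. It was lower again later, at 2.38 to 2.50 at 20 dpa and 1.49 to 1.55 at 50 dpa.

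Within photosystem II, the oxygen-evolving complex is capped by extrinsic subunits that stabilise the manganese cluster of water oxidation. PsbQ, which encodes such a subunit, stood at 2.45, 2.58 and 2.63 at 5 dpa and at 3.71, 3.76 and 3.85 at 10 dpa. All 3 older arrays were above all 3 younger ones, a rise of 2.33-fold (log2 1.22 ± 0.077 SE, adjusted p = 5.42e-07 in limma). PSBO, the gene of the main stabilising subunit, went from 1.69, 1.89 and 1.88 to 2.99, 2.91 and 3.09. Its rise was 2.26-fold (log2 1.18 ± 0.09, adjusted p = 2.64e-06 in limma), and its arrays were apart as well. PSBP, the gene of a further extrinsic subunit, was the highest of these above 0 dpa at 5 dpa, at 3.37, 3.42 and 3.43. At 10 dpa it was at 4.14, 4.08 and 4.19, a smaller step of 1.66-fold (log2 0.73 ± 0.07, adjusted p = 1.61e-05 in limma), with the direction turned under quantile normalisation as given above. PSBR, another photosystem II gene, moved from 0.91, 0.81 and 0.83 to 1.45, 1.52 and 1.55. Its arrays did not overlap either, and the difference was 0.66 ± 0.07 (adjusted p = 3.65e-05 in limma).

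The chlorophyll a/b-binding proteins form the light-harvesting antenna. CAB4 read 2.17, 2.24 and 2.25 at 5 dpa and 2.84, 2.85 and 2.94 at 10 dpa, a log2 difference of 0.65 ± 0.082. CAB6A read 2.43, 2.40 and 2.54 and then 3.06, 2.99 and 3.14, a difference of 0.61 ± 0.077. Both passed in limma (adjusted p = 0.000115 and 0.000126) and neither direction held under quantile normalisation. CAB5 behaved less evenly, at 0.35, 0.64 and 0.08 and then at 1.59, 1.09 and 1.82. Its arrays were apart but widely spread, and the rise of 2.21-fold (log2 1.14 ± 0.24, adjusted p = 0.00419 in limma) missed the threshold in the t-test (0.0773, the highest of its 17 alternatives, whose lowest was 0.00215). PETE, the gene of plastocyanin, the copper protein that carries electrons to photosystem I, rose from 0.93, 1.09 and 0.97 to 1.62, 1.72 and 1.73 (log2 0.69 ± 0.082, adjusted p = 7.77e-05 in limma). At 20 and 50 dpa it stood at 0.85 and -0.35.

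Both measured genes of chlorophyll synthesis rose as well. GSA-AT, which encodes the aminotransferase that forms 5-aminolevulinate, the precursor of all tetrapyrroles, read 0.82, 0.88 and 0.76 at 5 dpa and 1.36, 1.72 and 1.78 at 10 dpa. The 10 dpa arrays were all higher, though replicate 1 less so, with a difference of 0.80 ± 0.11 (adjusted p = 0.00017 in limma). POR2, the gene of the light-dependent protochlorophyllide oxidoreductase, went from 1.42, 1.26 and 1.44 to 2.16, 2.32 and 2.24. It rose 1.82-fold (log2 0.86 ± 0.093, adjusted p = 3.98e-05 in limma), or by 0.48 under quantile normalisation. GS2, which encodes the plastid glutamine synthetase that takes up ammonium in leaves, moved in the same direction, from 1.30, 1.41 and 1.31 to 1.93, 2.01 and 2.00 (log2 0.64 ± 0.078, adjusted p = 9.2e-05 in limma, and 0.30 under quantile normalisation). It was then lower at 20 and 50 dpa, at 0.46 and -1.83.

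Labelling and hybridisation controls also differed between the stages. All 36 probe sets of the Bacillus dap, lys, phe and thr transcripts used as labelling spikes were lower at 10 dpa, with a median difference of -1.28 and a range of -2.45 to -0.59. Their median relative value was 0.83, 1.53 and 0.66 on the 5 dpa arrays and -0.44, -0.17 and -0.21 on those of 10 dpa. The 6 probe sets of the Bacillus trp transcript lay between -0.15 and 0.05 and did not pass. Of 25 probe sets of the bioB, bioC, bioD and cre controls 20 fell, with a median of -0.42. For the actin control, the 5' probe set fell (-0.48, adjusted p = 0.0035 in limma), the 3' probe set was at 0.25 (adjusted p = 0.0797), and the 3 GAPDH probe sets rose by 0.24 to 0.41. Ubiquitin was at -0.47 on the 5' probe set (adjusted p = 0.00107) and -0.18 on the 3' one (0.218). For ef1a the 5' probe sets were at -0.63, -0.59 and -0.15 (adjusted p = 0.000569, 0.00146 and 0.604) and the 3' one at -0.11 (0.375). The GlutTrans control went the other way, at -0.02 on the 5' and -0.35 on the 3' probe set. The 25S ribosomal RNA probe set fell (-1.10, adjusted p = 0.0126). The part of these shifts in the rises and falls of genes was not tested.

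**Figure D3:**
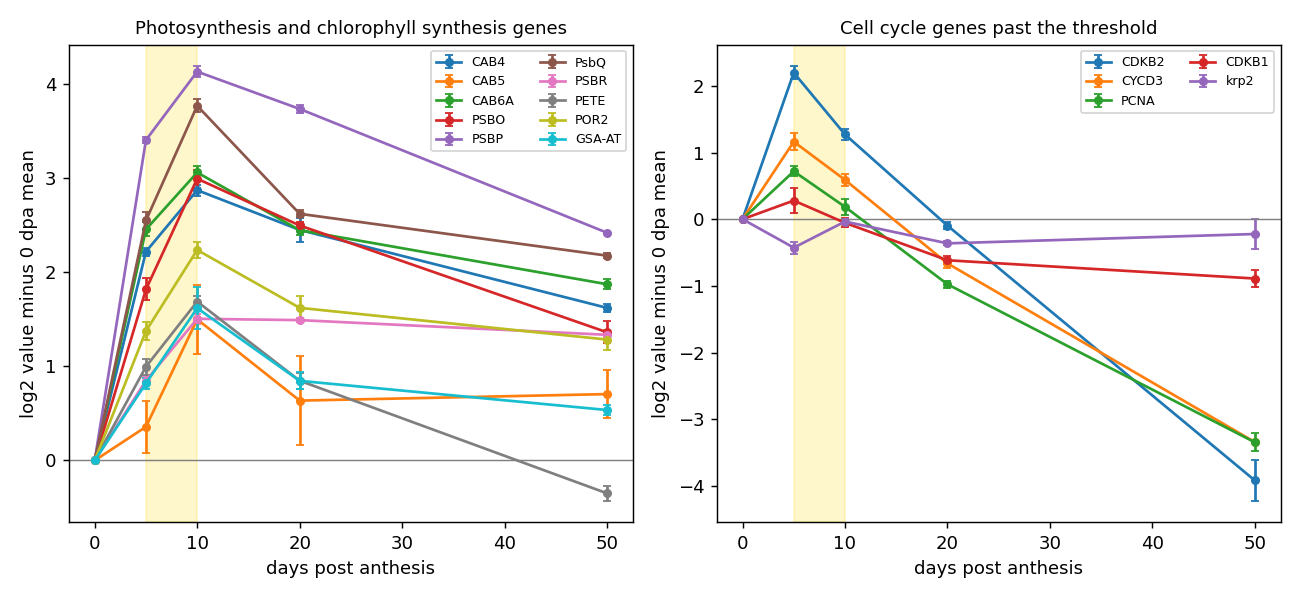
Relative log2 values (y axis, mean of 3 arrays with SD as bars) of photosynthesis and chlorophyll synthesis genes and of cell cycle genes at 0, 5, 10, 20 and 50 dpa (x axis), with the interval from 5 to 10 dpa shaded. Within the shaded interval the lines of photosynthesis genes climb, PSBP to 4.14 on the mean, while CDKB2, CYCD3 and PCNA come down.

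Some cell cycle transcripts fell over the same days. Of 13 measured genes of the cell cycle and DNA replication, 4 fell and 1 rose, with a median difference of -0.23, while the other 8 did not pass. CDKB2, a plant-specific cyclin-dependent kinase of mitosis, read 2.10, 2.29 and 2.19 at 5 dpa and 1.37, 1.21 and 1.24 at 10 dpa. It fell 1.9-fold (log2 -0.93 ± 0.12, adjusted p = 0.000209 in limma, and -1.40 under quantile normalisation) and still stood above 0 dpa on all 3 arrays of 10 dpa. CYCD3, a D-type cyclin gene of entry into the cycle, fell from 1.06, 1.31 and 1.12 to 0.51, 0.57 and 0.69 (log2 -0.57 ± 0.085, adjusted p = 0.000432 in limma). PCNA, the sliding clamp of DNA replication, fell from 0.80, 0.69 and 0.66 to 0.31, 0.17 and 0.08 (log2 -0.53 ± 0.091, adjusted p = 0.00119 in limma). In each of these genes the 2 sets of arrays were apart. They were lower still at 20 dpa, at -0.10, -0.66 and -0.98 for CDKB2, CYCD3 and PCNA, and at 50 dpa, at -3.92, -3.34 and -3.35.

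The remaining calls of this list were near the threshold. CDKB1, a further mitotic kinase gene, was at 0.07, 0.43 and 0.34 and then at -0.12, 0.01 and -0.06, a difference of -0.33 ± 0.10 (adjusted p = 0.0315 in limma). Its call ended without 5 dpa replicates 2 or 3, without 10 dpa replicates 1 or 3, and without 0 dpa replicate 3. Its adjusted p in limma was then 0.107, 0.0908, 0.096, 0.0808 and 0.0611, and over all alternatives it ran from 0.00847 to 0.152. The rise was that of krp2, which encodes an inhibitor of cyclin-dependent kinases, from -0.47, -0.49 and -0.32 to -0.03, -0.0025 and -0.07 (log2 0.39 ± 0.10, adjusted p = 0.0155 in limma). Leaving out 5 dpa replicate 1 or 10 dpa replicate 2 took it just past the threshold, with an adjusted p of 0.0507 and 0.0502 (0.0104 to 0.0507 over alternatives). CycA2, an A-type cyclin gene, was at -0.42 ± 0.17 and did not pass (adjusted p = 0.0955 in limma), although under quantile normalisation it did (0.0296, range over alternatives 0.0296 to 0.527).

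Among ethylene synthesis genes, ACO5 had the largest rise of all genes with a symbol. It encodes an ACC oxidase, the enzyme of the last step, and read 0.70, 0.80 and 1.00 at 5 dpa and 3.37, 3.41 and 3.41 at 10 dpa. The arrays of each stage lay close together and far from the other stage, a rise of 5.92-fold (log2 2.57 ± 0.083, adjusted p = 2.63e-09 in limma). It stood higher again later, at 6.36 at 20 dpa and 4.79 at 50 dpa. ACO4, another ACC oxidase gene, was below its 0 dpa level at both stages, at -1.18, -1.20 and -1.12 and then at -0.57, -0.70 and -0.78. It rose too (log2 0.48 ± 0.10, adjusted p = 0.00521 in limma). For a further ACC oxidase gene, ACO6, the probe sets disagreed. It counted as not passed on its A1 probe set (0.33, adjusted p = 0.216), while its 2 other probe sets fell (-0.75 and -0.56, adjusted p = 0.014 and 0.0278). With 1 probe set a gene, 3 of 14 ethylene synthesis genes rose and 0 fell, and the list's median was 0.03, no higher than that over all genes with a symbol.

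Genes of ethylene perception and response gave 5 rises and 2 falls among 35 and a median of 0.06, a share of calls below that over all genes with a symbol. ETR5, a receptor gene, fell from -0.93, -0.96 and -0.97 to -1.72, -1.56 and -1.60 (log2 -0.67 ± 0.08, adjusted p = 7.63e-05 in limma). The other 4 receptor genes named ETR did not pass, at -0.09 to 0.15. EIL2, of the EIN3-like transcription factors that act at the end of the ethylene pathway, rose from -0.46, -0.66 and -0.51 to -0.03, 0.07 and -0.12 (log2 0.51 ± 0.097, adjusted p = 0.00227 in limma). The other 3 EIL genes did not pass, at -0.14 to 0.03. ERF4, an ethylene response factor gene, rose from 0.40, 0.21 and 0.33 to 0.80, 1.08 and 1.10 (log2 0.68 ± 0.12, adjusted p = 0.00182 in limma). For ETR5, EIL2 and ERF4 the arrays of the stages did not overlap. ER69, named in tomato as an ethylene-responsive transcript, rose by 0.59 ± 0.094 (adjusted p = 0.000696 in limma). That value rests on an A1 probe set alone, a kind that may read the opposite strand, which was not checked here. E8, an ethylene-responsive ripening gene of tomato, was at 0.42 ± 0.14 with an adjusted p of 0.0416 in limma, and its call was lost in 10 of 17 alternatives (range 0.0114 to 0.143), among them those that dropped replicate 1 or 3 of 5 dpa, any array of 10 dpa, or replicate 1 or 2 of 0 dpa. With the 0 dpa error included 4 genes of this list passed.

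**Figure D4:**
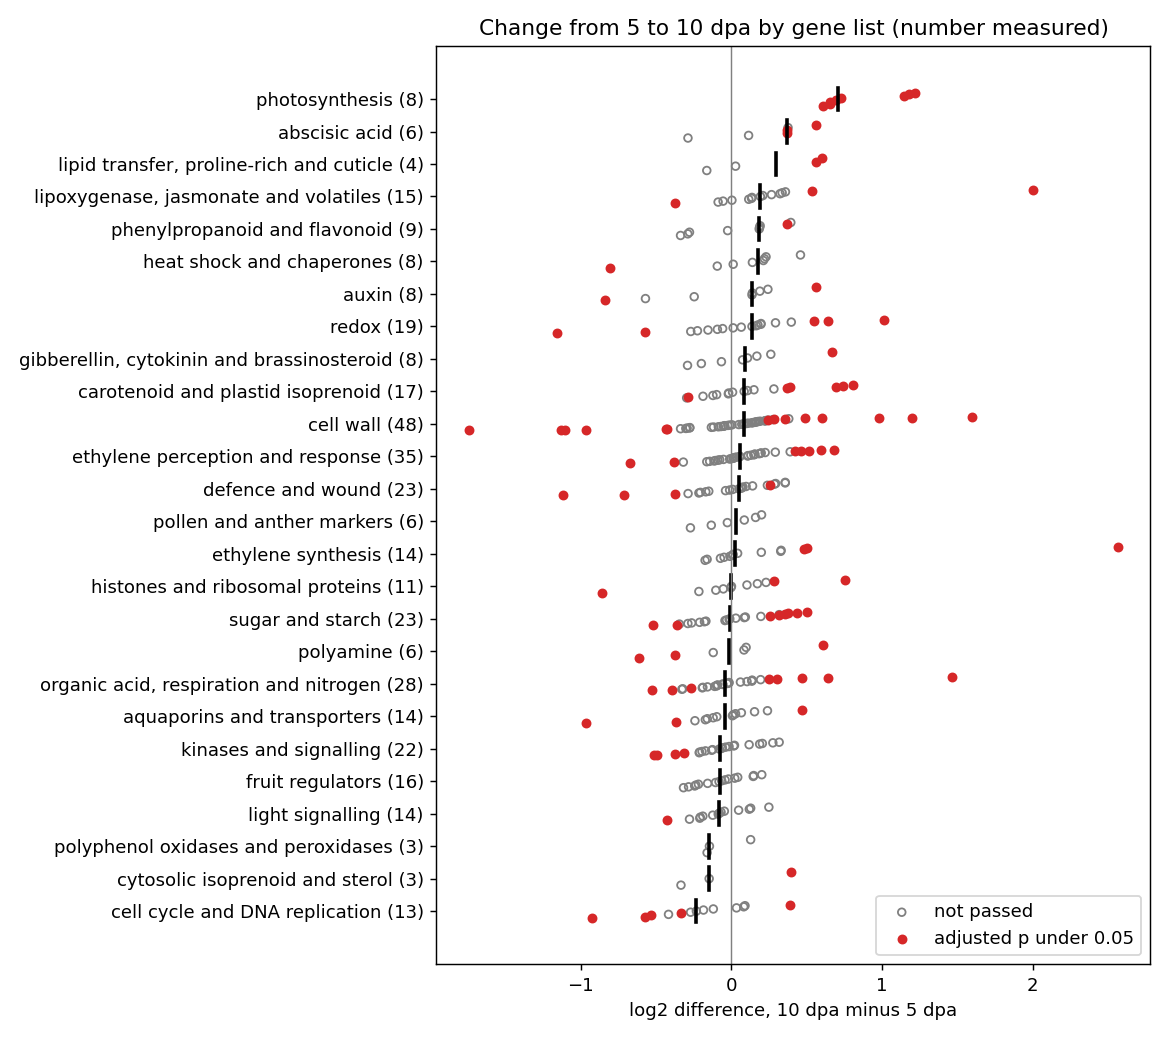
Log2 difference of 10 minus 5 dpa (x axis) for each measured gene of each list (y axis), with red points for genes past an adjusted p of 0.05 in limma and a black bar at the list's median. All 8 photosynthesis points are red and right of 0, whereas the cell wall points reach from -1.74 for Cel1 to 1.60 for EXP5 around a median of 0.08.

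Cell wall genes held large changes in both directions, with 8 rises and 6 falls among 48 and a median of 0.08. The count of 14 dropped to 9 without 10 dpa replicate 3, to 9 with the 0 dpa error and to 8 in the t-test. EXP5, an expansin gene, whose protein loosens walls without cutting them, was below 0 dpa at 5 dpa, at -1.33, -1.50 and -1.35, and slightly above it at 10 dpa, at 0.17, 0.16 and 0.28. It rose 3.02-fold (log2 1.60 ± 0.081, adjusted p = 1.52e-07 in limma). Of the other expansin genes a single one was called, at 0.25 (adjusted p = 0.0491 in limma), and the rest lay at -0.28 to 0.38. PMEU1, a pectin methylesterase gene, rose from 0.21, 0.26 and 0.58 to 1.22, 1.27 and 1.49 (log2 0.98 ± 0.14, adjusted p = 0.000265 in limma). MAN2, an endo-beta-mannanase gene known from tomato seeds and fruit, read 1.00, 0.85 and 0.28 and then 1.99, 1.84 and 1.91. The arrays were apart, with 5 dpa replicate 3 low, and the rise of 2.3-fold (log2 1.20 ± 0.15, adjusted p = 0.000115 in limma) missed the threshold with the 0 dpa error (0.139) and in the t-test (0.0527), the lowest over alternatives being 2.95e-05. MAN2 was also the single gene measured of those used as seed markers.

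The deepest fall in this list was that of Cel1, an endo-beta-1,4-glucanase gene, whose product cuts wall glucans. It read -0.97, -0.94 and -0.91 at 5 dpa and -2.60, -2.66 and -2.79 at 10 dpa. It had the deepest fall among genes with a symbol, 3.35-fold (log2 -1.74 ± 0.098, adjusted p = 2.59e-07 in limma), and stood at -3.30 and -5.00 at 20 and 50 dpa. The related cel5 was above 0 dpa at 5 dpa, at 2.12, 2.61 and 2.62, and less so at 10 dpa, at 1.28, 1.39 and 1.36 (log2 -1.10 ± 0.13, adjusted p = 7.56e-05 in limma). The family did not move together, since cel7 rose (log2 0.60 ± 0.16, adjusted p = 0.0185 in limma) and 3 further Cel genes did not pass, at 0.07 to 0.23. A further glucanase gene of the list, with another kind of symbol, fell too (log2 -0.44, adjusted p = 0.00651 in limma). The call of cel7 ended without 5 dpa replicate 3 and without 10 dpa replicate 1 or 3, at an adjusted p in limma of 0.0539, 0.0666 and 0.0553 (0.00353 to 0.0666 over alternatives). XTH1, which encodes a xyloglucan endotransglucosylase/hydrolase, fell from -1.15, -1.16 and -1.12 to -2.06, -2.11 and -2.14 (log2 -0.96 ± 0.08, adjusted p = 4.97e-06 in limma). Another gene named XTH rose on all its probe sets, by 0.27 to 0.61 (adjusted p = 0.0275 to 0.0352 in limma). The others named XTH did not pass, at 0.0034 to 0.22. XYL1, a xylosidase gene, fell from 0.39, 0.13 and 0.22 to -0.87, -1.06 and -0.73 (log2 -1.13 ± 0.11, adjusted p = 1.61e-05 in limma).

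In the list of lipoxygenase, jasmonate and volatile genes 2 rose and 1 fell among 15, with a median of 0.19. The gene loxC, a lipoxygenase that in tomato feeds the formation of short-chain volatiles, was below 0 dpa at 5 dpa, at -0.64, -0.74 and -0.87, and above it at 10 dpa, at 1.25, 1.29 and 1.22. The rise was 4.01-fold (log2 2.00 ± 0.081, adjusted p = 2.13e-08 in limma), and at 20 and 50 dpa the gene stood at 1.44 and -0.62. HPL, the gene of the hydroperoxide lyase that cleaves lipoxygenase products to aldehydes, rose from -0.45, -0.34 and -0.45 to 0.15, 0.05 and 0.17 (log2 0.54 ± 0.081, adjusted p = 0.0005 in limma). OPR3, which encodes the reductase of the jasmonate branch, fell (log2 -0.37 ± 0.082, adjusted p = 0.00601 in limma).

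Of 17 genes of carotenoid and plastid isoprenoid synthesis, 5 rose and 1 fell, with a median of 0.08, and 3 passed with the 0 dpa error. DXS, the entry enzyme of the plastid isoprenoid pathway, rose from 0.99, 1.10 and 0.99 to 1.73, 1.77 and 1.66 (log2 0.69 ± 0.089, adjusted p = 0.000135 in limma, and 0.44 under quantile normalisation). CrtR-b1, a beta-carotene hydroxylase gene of xanthophyll synthesis, rose from -0.39, -0.40 and -0.45 to 0.43, 0.39 and 0.36 (log2 0.81 ± 0.069, adjusted p = 6.39e-06 in limma). The steps were of like size on all arrays, and CrtR-b1 went on to 0.76 and 2.50 at 20 and 50 dpa whereas DXS was at 0.90 and -0.47. CRTL-E-1, the lycopene epsilon-cyclase gene of the lutein branch, rose from 1.50, 1.42 and 1.29 to 2.31, 1.97 and 2.17 (log2 0.74 ± 0.16, adjusted p = 0.00491 in limma), but not under quantile normalisation (0.153, range over alternatives 0.00297 to 0.153). Psy1, phytoene synthase, did not pass on any of its 3 probe sets, which gave 0.15, 0.14 and -0.11.

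In the redox list 3 genes rose and 2 fell among 19. FESOD, an iron superoxide dismutase gene, read -0.66, -0.87 and -0.65 and then 0.40, 0.24 and 0.21, a rise of 2.02-fold (log2 1.01 ± 0.093, adjusted p = 1.19e-05 in limma). A further probe set annotated to FESOD was at -0.07 (adjusted p = 0.725), so the probe sets of this gene disagreed. DHAR2, dehydroascorbate reductase of ascorbate recycling, rose from -0.36, -0.30 and -0.27 to 0.33, 0.35 and 0.30 (log2 0.64 ± 0.074, adjusted p = 6.72e-05 in limma), and cat1, a catalase gene, rose by 0.55 ± 0.073 (adjusted p = 0.000183). RBOH1, the gene of an NADPH oxidase that makes superoxide at the plasma membrane, fell from 0.91, 1.28 and 1.15 to -0.08, -0.04 and -0.02. This fall of 2.23-fold (log2 -1.16 ± 0.15, adjusted p = 0.000135 in limma) brought it near its 0 dpa value on all 3 arrays, and at 20 dpa it stood at 1.09.

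Genes of organic acid, respiratory and nitrogen metabolism gave 5 rises and 3 falls among 28, or 5 calls in all without 10 dpa replicate 2. Among the falls, the probe sets disagreed for GMP, at -0.53 (adjusted p = 0.0133 in limma) on the A1 probe set used and 0.43 (adjusted p = 0.044) on the other, and for mMDH1, at -0.27 (adjusted p = 0.0427) and 0.096. The fall of GMP did not pass without 10 dpa replicate 2 (0.0538, and 0.0101 to 0.0717 over alternatives), and that of mMDH1 passed in 6 of 17 alternatives (0.0314 to 0.262), failing without any 5 dpa array or without 10 dpa replicate 2 or 3. GABA-TP2, a gamma-aminobutyrate transaminase gene, rose from -0.60, -0.33 and -0.15 to 1.06, 1.02 and 1.24, that is 2.76-fold (log2 1.47 ± 0.13, adjusted p = 1.17e-05 in limma). It was back at 0.11 at 20 dpa and at -1.28 at 50 dpa. In the sugar and starch list 6 rose and 2 fell among 23, with a median of -0.01, and 5 passed without 5 dpa replicate 3 and 1 with the 0 dpa error. There sus3, sucrose synthase, went from 0.93, 1.00 and 1.02 to 1.25, 1.42 and 1.34 (log2 0.36 ± 0.081, adjusted p = 0.00688 in limma), which missed the threshold under quantile normalisation (0.141) and with the 0 dpa error (0.107), the lowest over alternatives being 0.00154. The cell wall invertase gene lin5 was at -0.21 ± 0.12 and did not pass (adjusted p = 0.231). Of the 6 polyamine genes 1 rose and 2 fell, and 1 of the 3 calls was left when 5 dpa replicate 2, or either replicate 2 or 3 of 10 dpa, was dropped. ODC, ornithine decarboxylase of putrescine synthesis, rose from -1.17, -1.22 and -1.12 to -0.51, -0.50 and -0.69 (log2 0.60 ± 0.082, adjusted p = 0.000214 in limma).

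Defence and wound genes gave 3 falls and 1 rise among 23. CHI9, a basic chitinase gene, fell from 0.30, 0.42 and 0.23 to -0.79, -0.90 and -0.71, or 2.17-fold (log2 -1.12 ± 0.11, adjusted p = 2.06e-05 in limma). NP24-I, an osmotin-like gene, fell from -0.25, -0.19 and -0.01 to -1.15, -0.58 and -0.85 (log2 -0.71 ± 0.14, adjusted p = 0.00243 in limma), though not in the t-test (0.0892, range over alternatives 0.00106 to 0.0892). HSP17-6, a small heat shock protein gene, was the single call among 8 heat shock and chaperone genes and fell from 0.11, 0.05 and 0.13 to -0.78, -0.56 and -0.77 (log2 -0.80 ± 0.081, adjusted p = 2.14e-05 in limma). Its later values were of another order, 3.94 at 20 dpa and 4.70 at 50 dpa. Without 10 dpa replicate 3, 2 genes of that list passed.

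Of 14 aquaporin and transporter genes 1 rose and 2 fell. PT1, a phosphate transporter gene, fell from -0.13, 0.04 and -0.21 to -1.04, -1.06 and -1.10 (log2 -0.97 ± 0.092, adjusted p = 1.57e-05 in limma). LHA1, a plasma membrane proton pump gene, fell by less (log2 -0.36 ± 0.085, adjusted p = 0.00845 in limma). The rise was that of another phosphate transporter gene (log2 0.47, adjusted p = 0.0399 in limma), which did not pass in the t-test or with the 0 dpa error. Among 4 genes of lipid transfer, proline-rich and cuticle proteins 2 rose, including TPRP-F1, a proline-rich protein gene of young tomato fruit, from 0.16, 0.41 and 0.42 to 0.81, 0.97 and 1.01 (log2 0.60 ± 0.10, adjusted p = 0.00129 in limma). The remorin gene rem-2, of a family of plasma membrane proteins, rose by 0.99 ± 0.12 (adjusted p = 7.47e-05).

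Among the hormone lists other than ethylene, calls made up 25% of auxin, 12.5% of gibberellin, cytokinin and brassinosteroid and 50% of abscisic acid genes. The share over all genes with a symbol was 24.2%. Most of the calls in these hormone lists did not outlast the loss of an array. Of 8 auxin genes 1 rose and 1 fell, and 0 passed without 5 dpa replicate 2 or 10 dpa replicate 3, with the 0 dpa error, or in the t-test. Most of the 8 were read on A1 probe sets, which may read the opposite strand. The rise came from such a probe set, at 0.56 (adjusted p = 0.0256 in limma). The S1 probe set of the same gene was at -0.32 (adjusted p = 0.128). The fall was that of IAA27, an Aux/IAA repressor gene, whose 2 probe sets, the former an A1 probe set, gave -0.84 ± 0.22 (adjusted p = 0.0169 in limma) and -0.61 ± 0.078 (adjusted p = 0.000124). The former read 0.69, 1.43 and 0.64 and then 0.16, 0.41 and -0.33, with 5 dpa replicate 2 high, and did not pass without that array (0.0597) or without 10 dpa replicate 3 (0.0808, range over alternatives 0.00746 to 0.196). In the abscisic acid list 3 of 6 genes rose, with a median of 0.37, and 1 was left when replicate 1 or 2 of 5 dpa or replicate 2 or 3 of 10 dpa was dropped. Of 8 genes of gibberellin, cytokinin and brassinosteroid 1 rose, a call that was lost when 5 dpa replicate 3, 10 dpa replicate 1 or 10 dpa replicate 2 was left out.

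Fruit regulators, which include the MADS-box factors of ripening, gave no call. Of 16 measured, 0 passed in limma 0 in the t-test and 0 at an unadjusted p under 0.05, and 1 passed without 10 dpa replicate 3. RIN, the ripening factor of tomato, read -0.08, -0.18 and -0.08 at 5 dpa and -0.09, -0.16 and -0.15 at 10 dpa, a difference of -0.02 ± 0.14 (adjusted p = 0.934 in limma) that was 0.0048 without 0 dpa replicate 3. TAGL1, a MADS-box gene of fruit growth and ripening in tomato, was at 0.20 ± 0.097 (adjusted p = 0.16). The MYB-domain gene fsm1 stayed far below its 0 dpa level at both stages, at -3.52, -3.28 and -2.75 and then at -3.16, -2.90 and -3.06, with overlapping arrays. Its difference of 0.14 ± 0.27 did not pass (adjusted p = 0.745 in limma), and it was -0.025 without 5 dpa replicate 1 and -0.31 under quantile normalisation.

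Among 22 kinase and signalling genes 4 fell and 0 rose, with 2 left when replicate 2 of 5 dpa or replicate 1 or 3 of 10 dpa was dropped and 0 with the 0 dpa error. Light signalling genes gave 1 fall among 14 (2 calls without 5 dpa replicate 2 or 0 dpa replicate 2), histones and ribosomal proteins 2 rises and 1 fall among 11. Phenylpropanoid and flavonoid genes gave 1 rise among 9, with 0 to 2 calls when single arrays were left out, and cytosolic isoprenoid and sterol genes 1 rise among 3. Of 3 polyphenol oxidases and peroxidases 0 passed in limma, 0 in the t-test and 0 at an unadjusted p under 0.05. The pollen and anther markers gave 0 calls among 6 in limma and 0 at an unadjusted p under 0.05, and 1 call without 5 dpa replicate 2. A lack of change between the stages cannot tell whether such tissue was in the samples.

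Some genes with large changes had symbols whose products are left undescribed here. LOC543899 rose from -0.14, 0.19 and -0.01 to 1.74, 1.83 and 1.70, or 3.35-fold (log2 1.74 ± 0.095, adjusted p = 2.3e-07 in limma). LOC778242 rose by 1.01 ± 0.095 (adjusted p = 1.41e-05). The deepest falls of this kind were those of LOC543607, from 0.84, 0.77 and 0.88 to -0.62, -0.44 and -0.62 (log2 -1.39 ± 0.094, adjusted p = 9.4e-07 in limma), and LOC544276, from -0.75, -0.80 and -0.77 to -2.19, -1.97 and -2.28 (log2 -1.37 ± 0.09, adjusted p = 7.85e-07 in limma). Prg1 fell (log2 -1.12 ± 0.15, adjusted p = 0.000175), and T6 was at -0.86 ± 0.12 (adjusted p = 0.000211).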

How the data were processed

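Biotin-labelled cRNA of eggplant fruit was hybridised to the Affymetrix tomato GeneChip, per the labels. The deposited log2 values were made by the authors with RMA in GeneSpring GX 11.5, per the series design text, and each 0 dpa array was normalised again with every later stage, per the labels. In the deposited table each probe set was centred on the median of the 6 columns of its set. Positive values were read as higher expression. No scanner file was analysed here to test that direction.

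The relative values of the 12 arrays of 5, 10, 20 and 50 dpa were fitted by lmFit and eBayes of limma 3.58.1 under R 4.3.3, with two-sided p-values and Benjamini-Hochberg adjustment over 10101 probe sets and a threshold of 0.05. Errors after ± are standard errors of this fit with 3 arrays a stage. The error of the 0 dpa means is left out of them, and an alternative with the 0 dpa columns as arrays of their own includes it. That alternative treats the columns of the same 3 arrays as independent between the sets. Their deviations correlated between the sets of 5 and 10 dpa (r = 0.69 to 0.71 across probe sets), so it can take their error as too large. For 0 dpa the same array differed between the sets of 5 and 10 dpa by an SD of 0.0891 to 0.0934. The script was tested on simulated data. No filter on low values was possible with centred values, and the number of arrays limits the precision. An exact permutation test of 3 against 3 arrays cannot go below 0.1 and was not used.

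Symbols came from platform annotation of 2007. Where a gene had several probe sets (82 genes), 1 stood for it, by the suffix order _at, _a_at, _s_at, _x_at and then the lowest ID, and an alternative took the highest mean. Probe sets with A1 in place of S1 in their names may read the opposite strand, which was not checked here. Tomato probes can differ from eggplant transcripts. Members and lists were chosen with earlier results of these data known. The naming rule took the 12 largest rises and falls by gene with arrays apart, the 2 smallest p and 2 largest changes per list, fixed genes such as RIN, E8 and Psy1, and at most 5 rises and 5 falls without a symbol. It took 91 genes. The text leaves out 36 of them, of which 17 were short of the threshold and 19 past it but lost in at least 1 alternative, and names 12 outside the rule, both chosen after the values were seen. All enter the counts. Plots were drawn with matplotlib 3.10.9.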

Additional observations from a re-analysis of the deposited data

Results flagged for a closer look

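Against 0 dpa, 5 genes were called in opposite directions at 5 and at 10 dpa, with the difference between the stages called as well. The comparisons share the 0 dpa arrays. The rise of loxC was 2.0037 on the log2 scale, from -0.75 to 1.25, that of FESOD 1.0112, from -0.73 to 0.28, that of CrtR-b1 0.8064, from -0.41 to 0.39, and that of DHAR2 0.638, from -0.31 to 0.33. LOC543607 went the other way, by -1.3902, from 0.83 to -0.56. Over all probe sets, 50 were called in opposite directions in this way.

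Among the control probe sets, which the tests left out, the 36 Bacillus dap, lys, phe and thr spikes had a median difference of -1.2764, with every one of these 36 lower at 10 dpa. The 6 trp probe sets lay between -0.15 and 0.05.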

How the results depend on the processing

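The 17 alternatives kept the count of changed probe sets within 1.5 times of 2269, from 1660 to 2399 without single arrays, except the methods' t-test (1045, with 522 rises, 523 falls and 78 rises of at least 2-fold) and the fit with the 0 dpa columns in the error (1017, with 476 and 541). Rises ran from 791 to 1108 and falls from 869 to 1302 without single arrays, and 2-fold ones from 110 to 134 and from 61 to 76. Same-numbered arrays of 5 and 10 dpa showed little shared deviation (r = -0.0036, -0.0106 and 0.0488 across probe sets), and not every array correlated best with its own number. The labels do not say whether the numbers pair arrays across stages, and these correlations cannot decide it. With the replicate number as a block 2220 probe sets passed. Of 67 named genes 60 passed, and 46 passed in every setting, a share raised by the genes of the rule that the text leaves out. Reversed values, apart from those given above for quantile normalisation (PSBP -0.30, CAB4 -0.079, CAB6A -0.11, fsm1 -0.31), were fsm1 at -0.025 without 5 dpa replicate 1 (-0.025 to 0.36 without single arrays), RIN at 0.0048 without 0 dpa replicate 3 (-0.055 to 0.0048) and, with the probe set of highest mean, Psy1 at -0.11, ACO6 at -0.75 and mMDH1 at 0.096. FESOD (-0.07) and GMP (0.43) also turned on probe sets that neither choice took. The cause was not tested.

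List counts moved as follows. In the t-test the cell wall list had 8, sugar and starch 4, defence 2, kinases 2, polyamine 1, lipid transfer 1, and auxin, gibberellin, abscisic acid, cytosolic isoprenoid, phenylpropanoid, histone and light signalling lists 0. With the 0 dpa error the cell wall list had 9, organic acid and nitrogen 5, ethylene perception 4, carotenoid 3, defence 2, sugar and starch, polyamine, lipid transfer and histones 1 each, and auxin, gibberellin, abscisic acid, cytosolic isoprenoid, phenylpropanoid, kinase and light signalling lists 0. With the median of 0 dpa as baseline lipoxygenase had 5 and gibberellin 2, and the latter had 0 with only the 6 arrays. Quantile normalisation gave phenylpropanoid 2. Other probe sets of a gene gave histones 1 and light signalling 2. Without single arrays the counts were 8 for photosynthesis, 4 to 6 for cell cycle, 9 to 14 for cell wall, 2 to 3 for ethylene synthesis, 6 to 8 for ethylene perception, 0 to 1 for fruit regulators, gibberellin and pollen, 0 to 3 for auxin, 1 to 3 for abscisic acid and polyamine, 4 to 6 for carotenoid and redox, 0 to 2 for phenylpropanoid, 3 to 4 for lipoxygenase, 5 to 9 for sugar and starch, 5 to 8 for organic acid and nitrogen, 3 to 6 for defence, 1 to 2 for heat shock and light signalling, 2 to 5 for kinases, 2 to 3 for aquaporins and transporters, 2 for lipid transfer, 2 to 4 for histones, 1 for cytosolic isoprenoid and 0 for polyphenol oxidases. With centred values no signal over background is known, so what low signals limit could not be assessed.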

Other observations

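Most of the largest changes lay in probe sets with no gene symbol, as did 9192 of all 10101 probe sets. A symbol was held by 4 of the 50 largest rises and 8 of the 50 largest falls past the threshold with arrays apart. Over all probe sets the share with a symbol was 9%. Changes without a symbol are given here by probe set. The 5 largest rises without a symbol all belonged to the 50 probe sets that were low on 5 dpa replicate 2. Without that array these 5 rose by log2 2.25 to 2.90 (adjusted p = 1.3e-07 to 6.68e-06 in limma). They passed in 15 to 17 of 17 alternatives. Outside those 50, and chosen after the values were seen, LesAffx.66472.1.S1_at read 0.47, 0.81 and 0.29 at 5 dpa and 3.74, 4.18 and 3.68 at 10 dpa. It rose 10.2-fold (log2 3.35 ± 0.20 in limma), with arrays far apart. LesAffx.823.1.S1_at rose 6.61-fold (log2 2.72 ± 0.13). The deepest fall was that of Les.4317.1.S1_at, from -0.93, -0.89 and -0.95 to -3.67, -3.42 and -4.21 (log2 -2.85 ± 0.16). The next falls, LesAffx.51158.2.S1_at at -1.67 and Les.513.1.S1_at at -1.63, were well short of it.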
